A study of Mus musculus with 6 samples.

Results

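Cell cycle and mitosis genes were followed in the apex of the left ventricle of adult mice after an induced loss of PTIP, the protein of the gene Paxip1 and a partner of histone H3K4 methyltransferases. The members were 50 genes listed by name for their textbook roles, with earlier results of these data known. They were 8 cyclins and cyclin-dependent kinases (CDKs) of G1, 11 genes of DNA replication and 31 genes of mitosis. A member was measured when at least 1 probe set of the Affymetrix mouse array was tied by the platform annotation to that gene alone. That held for 49 of 50 members with 117 probe sets, out of 18193 genes on the array, and Ccnb1 was not analysed here. The brightest probe set over all 6 arrays represented each gene. The others stand beside it, and they are repeated readings of 1 RNA rather than replicates.

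All 6 animals were female littermates, 8 weeks old, on a mixed C57B6 and B6129 background, and all received tamoxifen at 20 mg/kg, with RNA taken 5 days after tamoxifen per one label while another describes treatment for 5 days. The 3 knockout mice (PTIP KO) carried 1 floxed and 1 null Paxip1 allele and a Cre transgene, with Cre fused to a modified estrogen receptor and placed under the cardiomyocyte promoter of alpha myosin heavy chain. The 3 control mice (PTIP+) carried 1 floxed and 1 wild-type allele, with no transgene named in their labels, so the deletion, the null allele and the transgene cannot be told apart. Values are log2 expression values made with RMA (robust multi-array average), and every difference below is knockout minus control on that log2 scale.

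Adult cardiomyocytes rarely divide, and most dividing cells of a resting ventricle are endothelial cells, fibroblasts, blood-derived cells and other non-myocytes, in which this promoter is not known to be active. D-type cyclins with Cdk4 or Cdk6 open the cycle by phosphorylating the retinoblastoma protein, which releases E2F factors to switch on genes of DNA synthesis. Later, the MuvB complex with Mybl2 and Foxm1 switches on genes of mitosis, in most of which it meets a short element known as the CHR (cell cycle genes homology region), often near CCAAT boxes bound by NF-Y. D cyclins have roles outside division as well.

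The groups of members held these promoter elements in different shares, above all the CHR, and 6 promoters are shown for that reason. The promoter table of RefSeq (GRCm38.p6) holds 300 bases per promoter, from 250 before to 50 after the start, and matched 41 of the 50 listed members. The sequences below are the 120 bases before the start site, on the strand of the gene, with matches to searched letters in capitals. Cenpa had the smallest p among mitosis members with a promoter in the table, and its CHR letters (TTTGAA) begin at base 17 after the start and so are not shown. Cdkn3, Ube2c and Top2a followed as the mitosis members of smallest p with CHR letters in this window, and Rrm1 and Mcm6 are replication members without CHR letters.
Cenpa, chr5:30666766-30666885 (+): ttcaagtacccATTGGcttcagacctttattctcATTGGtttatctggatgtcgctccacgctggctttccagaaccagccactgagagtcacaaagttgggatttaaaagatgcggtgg
Cdkn3, chr14:46760421-46760540 (+): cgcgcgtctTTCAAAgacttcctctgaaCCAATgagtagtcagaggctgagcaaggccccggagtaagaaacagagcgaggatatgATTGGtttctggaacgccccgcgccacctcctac
Ube2c, chr2:164769809-164769928 (+): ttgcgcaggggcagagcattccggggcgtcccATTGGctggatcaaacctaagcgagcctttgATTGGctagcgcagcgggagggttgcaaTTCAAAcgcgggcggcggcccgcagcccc
Top2a, chr11:99024190-99024309 (-): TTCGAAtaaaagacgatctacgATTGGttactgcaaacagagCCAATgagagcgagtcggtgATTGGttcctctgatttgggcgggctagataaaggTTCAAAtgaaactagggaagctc
Rrm1, chr7:102441575-102441694 (+): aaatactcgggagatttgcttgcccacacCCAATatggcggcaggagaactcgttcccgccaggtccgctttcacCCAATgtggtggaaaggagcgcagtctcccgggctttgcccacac
Mcm6, chr1:128359706-128359825 (-): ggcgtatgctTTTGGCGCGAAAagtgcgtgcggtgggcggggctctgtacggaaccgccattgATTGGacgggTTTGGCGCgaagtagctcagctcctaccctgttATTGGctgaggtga

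The letters searched, on both strands, were CCAAT, the CHR letters TTTGAA or TTCGAA, and the E2F letters TTTCCCGC, TTTCGCGC, TTTGCCGC or TTTGGCGC, where neighbouring matches may overlap, as the first E2F matches of Mcm6 do. ATTGG and TTCAAA in the sequences are CCAAT and TTTGAA read on the other strand. CHR letters were found in 21 of 27 promoters of mitosis members (77.8%) and in 19.2% of all 32851 promoters of the table. All 21 also held CCAAT, a pairing found in 7.52% of all promoters. CCAAT, with or without CHR letters, was common in both large groups, in 85.2% of mitosis and 81.8% of replication promoters, against 37.4% of all promoters. Of 11 promoters of replication members, 4 held E2F letters (36.4%, against 2.26% of all promoters) and 2 held CHR letters, both with CCAAT. Of 6 promoters of G1 members, none held CHR letters and 1 held E2F letters. A match describes the letters only and shows no binding.

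Paxip1 itself, which checks the labels, fell in the knockout ventricles. On the probe set 1423303_at it read 6.34, 5.9 and 5.9 in knockouts 1 to 3 and 7.8, 7.71 and 8.1 in controls 1 to 3, a difference of -1.83 (SE 0.17, limma adjusted p = 0.024). Of its 4 probe sets, 1423302_a_at and 1454943_a_at also passed and 1434363_x_at, at -0.95 (limma adjusted p = 0.106), did not. Without any single mouse the adjusted p of all 4 lay between 0.059 and 0.33. Over the whole array 86 of 45037 probe sets passed (0.191%), between 0 and 21 with any single mouse left out, so the power behind the counts below is limited. The arrays correlated at 0.989 to 0.995, and control 1 stood apart on the first principal component (28.9% of the variance). On the second (28.2%) knockouts 1 to 3 lay at 28.5, 30.5 and 21.2 and controls 1 to 3 at -19.9, -27.7 and -32.6. Control 1 also had the highest log2 difference between 3' and 5' actin control probe sets, 1.85 against 1.17 to 1.64 elsewhere. That difference grows as RNA degrades. All 12 of 12 cardiomyocyte markers were bright, between 12.02 and 13.68 on their representative probe sets. Esr1, whose coding sequence is part of the transgene, read 12.54, 12.57 and 12.59 in knockouts 1 to 3 and 8.49, 6 and 5.14 in controls 1 to 3 on 1421244_at.

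No cell cycle gene passed limma over all probe sets at an adjusted p under 0.05, where 0.286% of all genes passed (52 of 18193), and none of the 117 member probe sets did. The smallest adjusted p of a member was 0.0878, of Cenpa. By size, members leaned low: 37 of 49 differences were negative, where 44.9% of all genes were, and the median difference was -0.11 against 0.02 over all genes. With single mice left out, the count of 37 ran from 28 without control 1 (41.3% of all genes) to 40 without knockout 1 (45% of all genes). Because the members were chosen with earlier results of these data known, the comparisons of their counts with all genes carry no test. At an unadjusted limma p under 0.05, 9 of 49 members were lower, where 3.8% of all genes were, and 1 was higher, where 5.47% of all genes were. Of the 117 member probe sets 15 were lower and 6 higher at that p, where 4.59% and 4.48% of all probe sets were. The count of 9 members became 5 without knockout 1, knockout 2 or control 2, and 15 without control 3. The groups did not overlap, with all knockouts lower, for 8 members (6.57% of all genes) and with all knockouts higher for 2 (9.44% of all genes).

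Each of the 3 groups had more negative than positive differences, and whether the groups differed from one another was not tested. The 30 measured mitosis members had a mean difference of -0.23 and a median of -0.24, with 25 lower and 5 higher. The 8 G1 members had a mean of -0.11, from -0.73 to 0.31, with 5 lower and 3 higher. The 11 replication members had a mean of -0.01, from -0.33 to 0.31, with 7 lower and 4 higher. The means per mouse, of values centred on each gene, show how much of this rested on single controls. For mitosis they were -0.06, -0.19 and -0.09 in knockouts 1 to 3 and 0.20, 0.30 and -0.16 in controls 1 to 3, so controls 1 and 2 were high while control 3 lay below knockouts 1 and 3. The mitosis mean was -0.14 without control 2 and -0.37 without control 3, and -0.18 without control 1. For G1 genes only control 1, at 0.21, stood above the others, which lay between -0.07 and 0.00. The G1 mean was -0.03 without control 1, -0.06 with each array centred on its median and -0.01 when all probe sets of a gene were averaged. The replication means were 0.08, -0.09 and -0.01 in knockouts 1 to 3 and 0.15, 0.02 and -0.15 in controls 1 to 3, spread as widely within the controls as across all mice. The replication mean turned sign with the setting, from -0.09 without control 3 to 0.06 without control 1, with 0.03 for centred arrays and 0.02 for averaged probe sets.

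**Figure D1:**
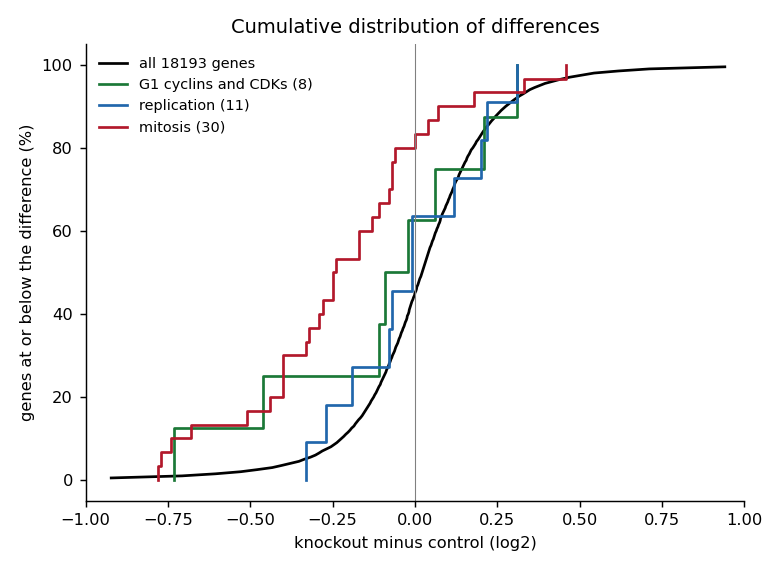
Cumulative share of genes (percent, vertical axis) at or below each knockout minus control difference (log2, horizontal axis) for all 18193 genes (black) and the 3 groups of members. The mitosis curve lies left of the curve of all genes over most of its length, with a median of -0.24 against 0.02, while the replication curve, with a median of -0.01, stays near it.

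**Figure D2:**
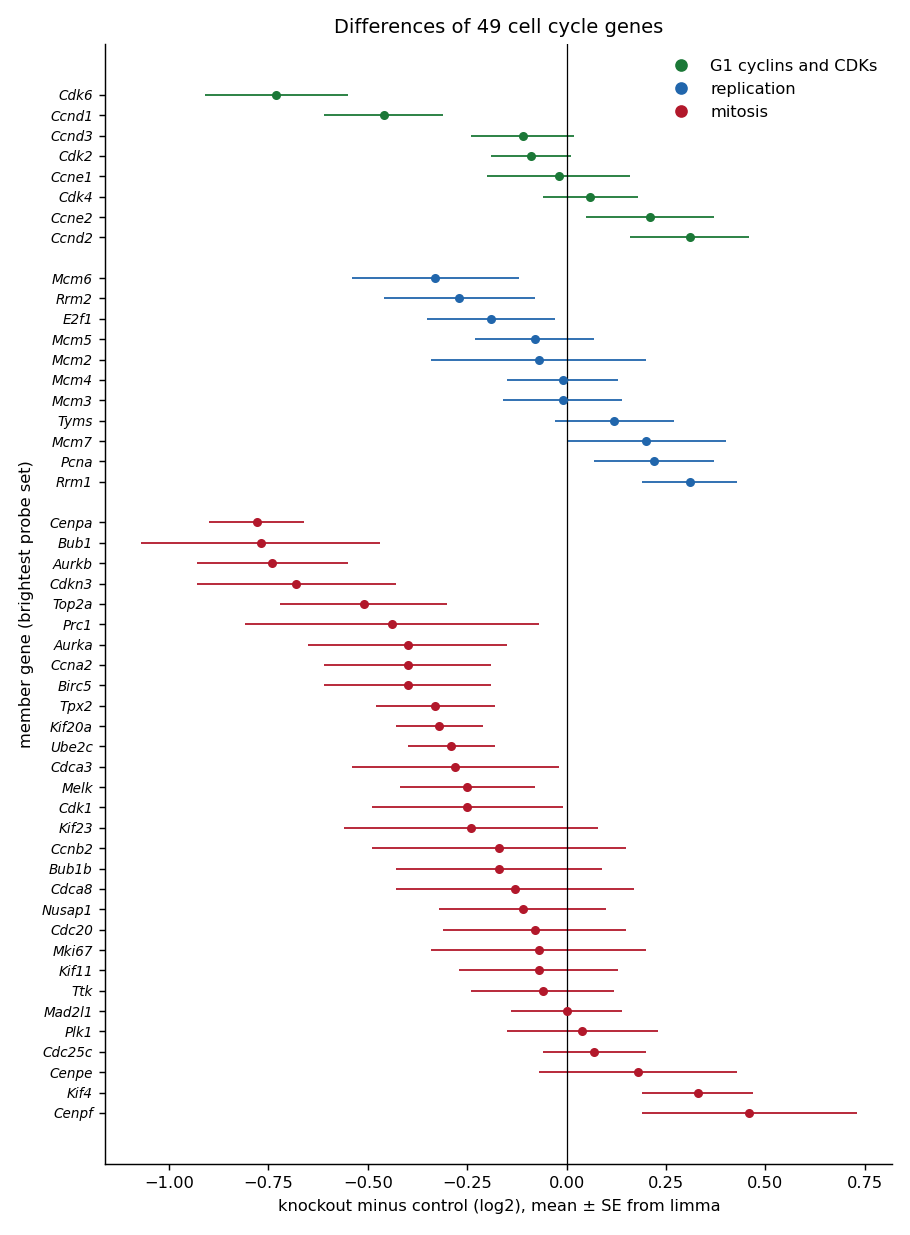
Difference of each of the 49 measured members (points, knockout minus control, log2) with its standard error from limma (bars), on the brightest probe set of each gene and ordered within the G1, replication and mitosis groups. Cenpa at -0.78 is the lowest and Cenpf at 0.46 the highest. No member passed over all probe sets.

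The D cyclins had differences of both signs, and whether they differed from one another was not tested. Ccnd1 encodes cyclin D1, the D cyclin most responsive to growth factors. It read 10.89, 11.32 and 11.03 in knockouts 1 to 3 and 11.63, 11.61 and 11.38 in controls 1 to 3. All knockouts were below all controls, knockout 2 only narrowly below control 3, with a difference of -0.46 (limma adjusted p = 0.404, SE 0.15). Both further Ccnd1 probe sets differed by -0.28 and -0.39, also without overlap between groups.

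Ccnd2, cyclin D2, was the brightest member, with a mean of 12.03. Its representative probe set read 12.09, 12.37 and 12.09 in knockouts 1 to 3 and 12.1, 11.71 and 11.82 in controls 1 to 3, where only control 1 reached the knockouts (difference 0.31, SE 0.15, limma adjusted p = 0.608). That probe set gave the smallest difference of the gene. All 7 Ccnd2 probe sets were higher in the knockout mice, by 0.31 to 0.65, and on 5 of them the groups did not overlap. The probe set of smallest p, 1416123_at, read 11.16, 11.16 and 10.87 in knockouts 1 to 3 and 10.43, 10.41 and 10.39 in controls 1 to 3, a difference of 0.65 (SE 0.12, limma adjusted p = 0.14). The mean of all 7 differed by 0.50 (limma adjusted p = 0.139). Ccnd3, cyclin D3, differed by -0.11 (95% interval -0.42 to 0.19), and its other probe sets had opposite signs.

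Cdk6 and Cdk4 are the partner kinases of the D cyclins. Cdk6 read 7.25, 7.44 and 7.72 in knockouts 1 to 3 and 8.26, 8.42 and 7.92 in controls 1 to 3. The groups did not overlap, with a difference of -0.73 (SE 0.18, limma adjusted p = 0.255), the lowest of the G1 group. A second Cdk6 probe set differed by -0.57 without overlap, and 1460291_at, dim at a mean of 3.20, by -0.14. Cdk4, which binds the same cyclins, differed by 0.06, with a 95% interval of -0.22 to 0.34 and 0.09 and 0.10 on its other probe sets. Whether Cdk4 and Cdk6 responded differently was not tested.

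Cyclin E with Cdk2 carries the cell from G1 into S phase. Ccne2 read 6.18, 6.27 and 6.28 in knockouts 1 to 3 and 6.34, 6 and 5.76 in controls 1 to 3, so the knockouts lay within the range of the controls (difference 0.21, SE 0.16, limma adjusted p = 0.792). Ccne1 differed by -0.02, with a sign that turned when arrays were centred or renormalized. Cdk2 was lower in every knockout by a small amount, with means of 7.67 ± 0.06 and 7.77 ± 0.02 (SD, n = 3 each) and a difference of -0.09 (SE 0.10). Its exact permutation p was 0.1, the smallest that 3 against 3 mice allow, and 10 of 49 members had that p (20.4%), where the groups did not overlap in either direction for 16% of all genes.

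**Figure D3:**
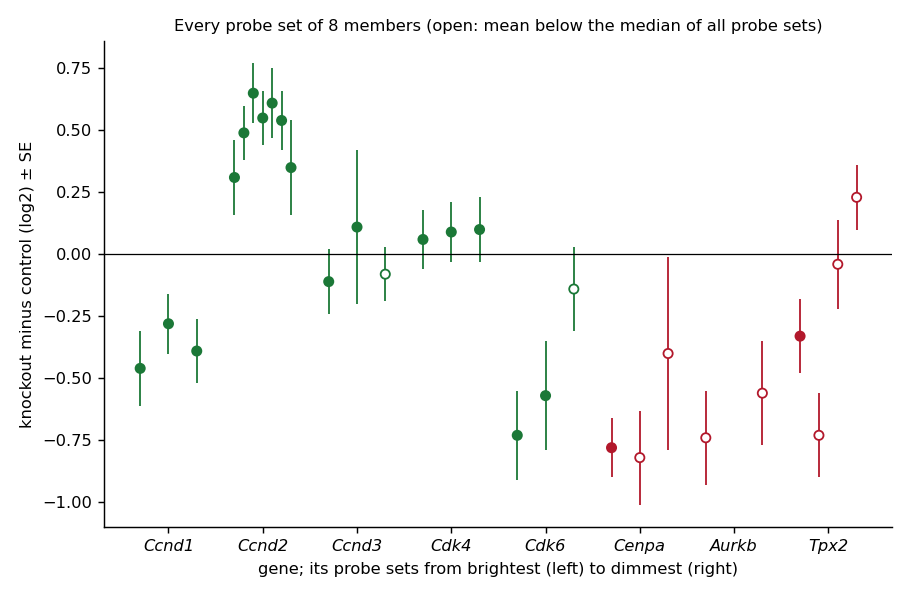
Difference (knockout minus control, log2) with its standard error for every probe set of 8 members, from the brightest to the dimmest probe set of each gene. Green marks G1 genes and red mitosis genes, and open points have a mean below 5.19, the median of all probe sets. All 7 probe sets of Ccnd2 lie above 0, and all 3 of Ccnd1, Cdk6 and Cenpa lie below 0.

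E2f1, a factor that switches on many genes of DNA replication, differed by -0.19 (SE 0.16), and its sign turned when its probe sets were averaged. Mcm2 to Mcm7 form the ring-shaped helicase that unwinds DNA, and 5 of the 6 differed by -0.33 to -0.01, while Mcm7 differed by 0.20 (SE 0.20). Mcm6 had the lowest difference of the group. It read 7.25, 6.67 and 7.39 in knockouts 1 to 3 and 7.65, 7.47 and 7.2 in controls 1 to 3, where knockout 2 alone lay below all controls and knockouts 1 and 3 lay within their range (difference -0.33, SE 0.21, limma adjusted p = 0.731). Without knockout 2 the Mcm6 difference was -0.12. Mcm2 read 8.1 in control 1 and between 7.02 and 7.41 in the other mice, and its sign turned without control 1.

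Pcna, the sliding clamp of DNA polymerases, was the brightest replication gene. It read 11.36, 11.26 and 11.42 in knockouts 1 to 3 and 10.83, 11.32 and 11.23 in controls 1 to 3, where control 1 was low and the groups overlapped (difference 0.22, SE 0.15, limma adjusted p = 0.756). Without control 1 the Pcna difference was 0.07. Ribonucleotide reductase makes the building blocks of DNA. Rrm1, the large subunit, read 8.01, 8.02 and 8.07 in knockouts 1 to 3 and 7.76, 7.84 and 7.56 in controls 1 to 3, with no overlap (difference 0.31, SE 0.12, limma adjusted p = 0.473). Its second probe set differed by 0.27 and the last, dim at 2.17, by -0.03. Rrm2, the subunit that dividing cells make in S phase, read 9.73, 9.99 and 9.7 in knockouts 1 to 3 and 10.48, 9.88 and 9.88 in controls 1 to 3, high in control 1 alone (difference -0.27, SE 0.19, limma adjusted p = 0.761). Without control 1 the Rrm2 difference was -0.07, and both other Rrm2 probe sets differed by 0.03. Tyms, thymidylate synthase, was the dimmest member at 3.52 and differed by 0.12.

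That dim end sets a limit on the smaller values. The 83 probe sets of olfactory, vomeronasal and taste receptor genes, which have no known role in ventricle and served as a scale for dim values, had a median mean of 2.20 and a 95th percentile of 3.71. Of the 49 members 48 lay above that percentile, and 88 of the 117 member probe sets did. Only 37 members lay above 5.19, the median of all probe sets, and mitosis genes were the dimmest group, with a median level of 5.76 against 7.51 for replication and 8.56 for G1 genes. RMA compresses differences of dim probe sets.

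Among mitosis genes, Cenpa had the lowest difference and the smallest p of all members. It encodes the histone H3 variant that marks centromeres, and unlike most of the group it was bright, with a mean of 9.53. Cenpa read 9.29, 9.13 and 9.02 in knockouts 1 to 3 and 10.07, 9.83 and 9.86 in controls 1 to 3. The gap between the groups was wider than the range within either group. The knockout level was 0.584 of the control level, a difference of -0.78 (SE 0.12, limma adjusted p = 0.0878), which passed the 0.05 threshold with a variance trend (limma adjusted p = 0.0287) and with array weights (limma adjusted p = 0.0439). Leaving out any single mouse gave -0.85 to -0.70, with limma adjusted p from 0.138 to 0.308. A second Cenpa probe set, dim at 3.58, differed by -0.82 without overlap, and the third by -0.40 with overlap.

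The other centromere and kinetochore proteins named Cenp among the members had positive differences. Cenpf, a protein of the kinetochore and nuclear matrix and the second brightest mitosis member, read 8.65, 8.97 and 9.78 in knockouts 1 to 3 and 8.8, 8.72 and 8.51 in controls 1 to 3. Only knockout 3 was clearly high (difference 0.46, SE 0.27, limma adjusted p = 0.71), and without it the difference was 0.13. Cenpe, a kinetochore motor, differed by 0.18 (SE 0.25) and overlapped widely.

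Aurkb, the kinase of the chromosomal passenger complex that corrects faulty spindle attachment, read 4.09, 3.92 and 4.33 in knockouts 1 to 3 and 5.1, 4.99 and 4.47 in controls 1 to 3. The groups did not overlap, though knockout 3 and control 3 were close (difference -0.74, SE 0.19, limma adjusted p = 0.29). Its partners in that complex, Birc5 (survivin) and Cdca8 (borealin), differed by -0.40 (SE 0.21) and -0.13 (SE 0.30), each with overlap, and Birc5 by -0.20 without control 1. Aurka, the spindle pole kinase, differed by -0.40 (SE 0.25), or by -0.12 without knockout 2. Tpx2, its activator, differed by -0.33 (SE 0.15), with -0.73 (SE 0.17) on a second Tpx2 probe set. The remaining Tpx2 probe sets, dim at 2.36 and 2.27, differed by -0.04 and 0.23. Plk1 and Ttk, kinases of mitotic entry and of the spindle checkpoint, differed by 0.04 (SE 0.19) and -0.06 (SE 0.18).

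Bub1, a kinase of the spindle checkpoint, read 3.6, 3.28 and 3.2 in knockouts 1 to 3 and 4.11, 4.76 and 3.51 in controls 1 to 3. Control 2 was highest and control 3 lay below knockout 1 (difference -0.77, SE 0.30, limma adjusted p = 0.501), and without control 2 the difference was -0.45. Bub1 was dim, with a mean of 3.74, and its other probe set, dimmer at 2.22, differed by 0.04. The related Bub1b differed by -0.17 (SE 0.26), and for Mad2l1, of the same checkpoint, the 95% interval ran from -0.32 to 0.32. Melk, a kinase of proliferating cells, differed by -0.25 (SE 0.17).

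Several members act on or with Cdk1 and the anaphase-promoting complex. Cdkn3, a phosphatase that acts on CDKs, read 3.56, 3.31 and 4.21 in knockouts 1 to 3 and 4.68, 4.3 and 4.15 in controls 1 to 3. Knockout 3 just reached the lowest control (difference -0.68, SE 0.25, limma adjusted p = 0.467). Cdk1 and the cyclins Ccna2 and Ccnb2 differed by -0.25 (SE 0.24), -0.40 (SE 0.21) and -0.17 (SE 0.32), and the sign of Cdk1 and Ccnb2 turned without control 2. Without control 1 the Ccna2 difference was -0.20. Ube2c, the ubiquitin-conjugating enzyme of the anaphase-promoting complex, read 7.38, 7.5 and 7.62 in knockouts 1 to 3 and 7.85, 7.84 and 7.69 in controls 1 to 3, without overlap (difference -0.29, SE 0.11, limma adjusted p = 0.514). Cdc20, the activator of that complex, differed by -0.08, Cdc25c, the phosphatase that activates Cdk1, by 0.07 and Cdca3 by -0.28, each with overlapping groups.

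Of the spindle motors and cytokinesis genes, Kif20a, a kinesin of the central spindle, was the most even. It read 5.57, 5.62 and 5.66 in knockouts 1 to 3 and 5.95, 6.04 and 5.82 in controls 1 to 3, with no overlap (difference -0.32, SE 0.11, limma adjusted p = 0.431). Prc1, which bundles the microtubules that Kif4 and Kif23 work on, read 6.97, 7.08 and 7.04 in knockouts 1 to 3 and 8.07, 7.81 and 6.52 in controls 1 to 3, so control 3 was below every knockout (difference -0.44, SE 0.37). The Prc1 difference was -0.13 without control 1 and -0.91 without control 3. Kif23 and Kif11 differed by -0.24 and -0.07, and Nusap1, a spindle protein, by -0.11. Kif4 was the only mitosis member with all knockouts higher, 4.03, 4.03 and 3.99 against 3.97, 3.54 and 3.54, a difference of 0.33 (SE 0.14, limma adjusted p = 0.558) that left only a narrow gap to control 1.

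The most used labels of dividing cells did not separate the groups alike. Top2a, the topoisomerase that untangles chromosomes, read 5.65, 5.29 and 5.45 in knockouts 1 to 3 and 5.85, 6.41 and 5.65 in controls 1 to 3, where knockout 1 and control 3 were equal to 2 decimals (difference -0.51, SE 0.21, limma adjusted p = 0.527). Both other Top2a probe sets, dim at 3.21, differed by -0.04 and 0.07 with overlap. Mki67, the gene of the Ki-67 antigen, read 7.32, 6.93 and 6.96 in knockouts 1 to 3 and 6.81, 7.78 and 6.84 in controls 1 to 3. Control 2 alone was above all knockouts, the difference was -0.07 (SE 0.27, limma adjusted p = 0.97), and it was 0.24 without control 2. Bub1, Top2a, Ube2c, Prc1, Kif4 and Mki67 were chosen for values in every mouse after their values were seen.

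**Figure D4:**
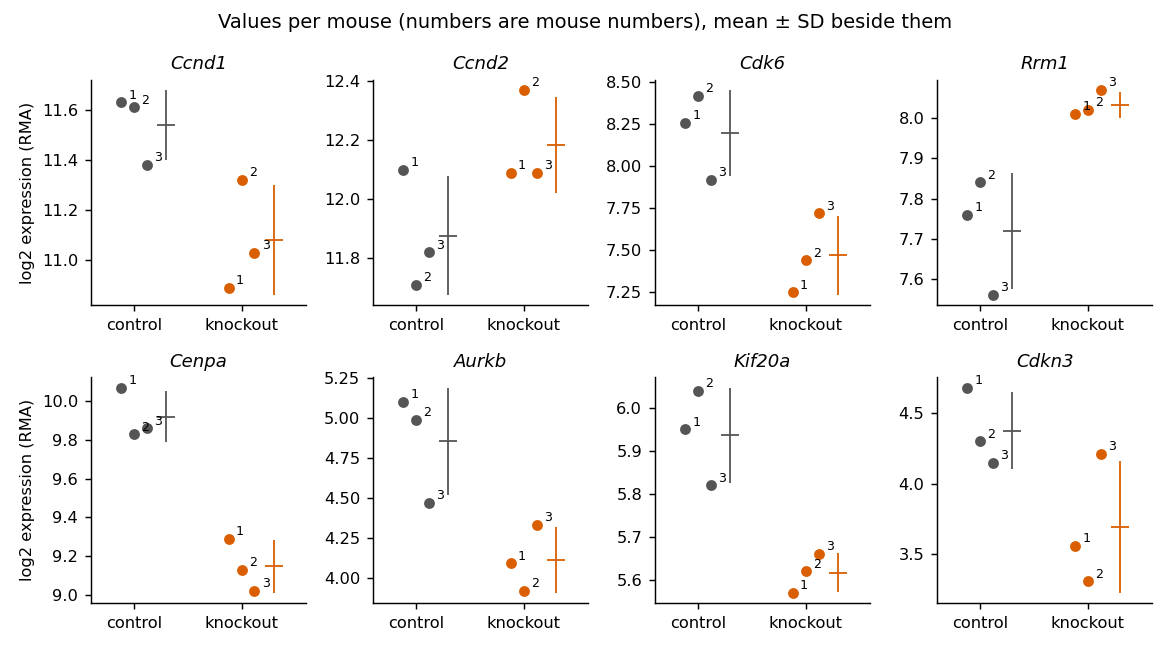
Log2 expression (RMA) of 8 members in each mouse, with mouse numbers beside the points and the mean ± SD of each group to their right (n = 3). Each panel has its own axis. The groups do not overlap for Ccnd1, Cdk6, Rrm1, Cenpa, Aurkb and Kif20a, and overlap for Ccnd2 and Cdkn3.

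Mitosis members with CHR letters in the promoter had a median difference of -0.20 (20 genes, 17 of them negative) and those with a promoter lacking them a median of -0.11 (5 genes, 3 negative). The ranges, -0.78 to 0.46 and -0.40 to 0.18, overlapped, and the difference between the sets was not tested. Aurkb, Ccna2, Cdc25c, Kif20a and Tpx2 had no promoter in the RefSeq table and were in neither set. They differed by -0.74, -0.40, 0.07, -0.32 and -0.33.

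Other cell cycle genes were listed by role, also with earlier results of these data known. None of 114 measured genes passed limma over all probe sets (smallest adjusted p = 0.31), and 63 were lower and 51 higher, with a median of -0.04 against 0.02 over all genes. Of these genes 8 were lower and 1 higher at an unadjusted limma p under 0.05, where 3.8% of all genes were lower and 5.47% higher. Of 49 genes of kinetochore, spindle, condensin and cytokinesis 35 were lower, with a median of -0.11. Hmmr, a spindle protein, differed by -0.78 (SE 0.23, limma adjusted p = 0.363) and Spc25, of the kinetochore, by -0.49 (SE 0.15, limma adjusted p = 0.384), both without overlap. Of 30 genes of origin licensing and DNA synthesis 24 were higher, with a median of 0.13. Among them Prim1, the primase that starts each new strand, read 8.84, 8.56 and 8.83 in knockouts 1 to 3 and 8.29, 8.35 and 8.3 in controls 1 to 3 (difference 0.43, SE 0.12, limma adjusted p = 0.31), and Dut, which keeps uracil out of DNA, differed by -0.29 (SE 0.11, limma adjusted p = 0.485).

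Of the 7 CDK inhibitors, 5 were higher and 2 lower, and none had an unadjusted limma p under 0.05. Cdkn2b, an inhibitor of Cdk4 and Cdk6, differed by 0.39 (SE 0.22) and Cdkn2d, of the same family, by 0.16 (SE 0.12), with limma adjusted p of 0.679 and 0.788. Of 18 pocket proteins, E2F and MuvB factors, 13 were lower with a median of -0.06. E2f3, an activating E2F, read 10, 10 and 9.95 in knockouts 1 to 3 and 10.49, 10.39 and 10.25 in controls 1 to 3 (difference -0.39, SE 0.11, limma adjusted p = 0.317), and E2f8, a repressor of E2F targets, differed by -0.78 (SE 0.22, limma adjusted p = 0.342). The list of CDK activators, Wee1 kinases, Skp2 and Cks proteins had 7 of 10 lower. Among them Cks2 differed by -0.43 (SE 0.13, limma adjusted p = 0.376) and Cks1b by -0.28 (SE 0.13, limma adjusted p = 0.569). E2f3, E2f8, Cks2, Cks1b and Dut were each lower in every knockout than in any control, and Prim1 was higher. These genes were named for the smallest p of their lists. Of all 114 other cell cycle genes, 10 were lower and 5 higher without overlap. That is 13.2% of them, where the groups did not overlap in either direction for 16% of all genes.

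Markers of other cells were set beside the mitosis mean mouse by mouse, since in a bulk sample fewer dividing cells and less RNA per cell cannot be told apart. All 12 of 12 macrophage markers were lower in the knockout mice, by -0.51 to -0.13 with a median of -0.34, though none passed limma over all probe sets (smallest adjusted p = 0.288). The groups did not overlap for 3 of 12, Mrc1, Adgre1 and Csf1r, at -0.51, -0.47 and -0.33, where all knockouts were lower for 6.57% of all genes. The mean macrophage level was 8.34, 7.80 and 8.07 in knockouts 1 to 3 and 8.35, 8.50 and 8.34 in controls 1 to 3. Control 2 was highest and knockout 2 lowest for both the macrophage and the mitosis mean, but control 3 was low for mitosis alone, and knockout 1 was close to the controls for macrophages. Their part in the mitosis values was not tested.

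Endothelial and fibroblast markers, of the most numerous non-myocytes, differed little. Endothelial markers had 7 of 12 lower with a median of -0.05, and their mean level was 10.03 to 10.20 in the knockout mice and 9.98 to 10.32 in the controls. Control 1, high for mitosis genes, was the lowest for endothelial markers, and control 2 was the highest. Fibroblast markers had 4 of 10 lower with a median of 0.05 and a mean level of 10.58 to 10.72 against 10.54 to 10.72. Smooth muscle and pericyte markers had 2 of 9 lower, with a mean level of 9.59 to 9.87 against 9.54 to 9.72. Cardiomyocyte markers had 8 of 12 lower with a median of -0.02 and a mean level of 13.07 to 13.13 against 13.03 to 13.10.

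Mesothelial markers, of the outer surface of the heart, varied more between mice than between groups, with a mean level of 5.94, 4.79 and 7.14 in knockouts 1 to 3 and 6.88, 6.90 and 5.80 in controls 1 to 3, 6 of 7 lower and none passing. Control 3 and knockout 2, low for mitosis genes, were low here too, but knockout 3 was the highest for mesothelial markers and not for mitosis genes. Lymphocyte markers were dim, at mean levels of 3.89 to 4.50 against 3.80 to 4.18 with 4 of 9 lower, and neutrophil markers gave 4.41 to 4.84 against 4.30 to 5.06 with 3 of 5 lower. Erythroid markers had 2 of 4 lower (4.65 to 5.09 against 4.77 to 5.23), the 3 measured adipocyte markers were all higher (3.77 to 4.27 against 3.70 to 3.92), and so were the 3 measured Schwann cell markers (6.05 to 6.60 against 5.97 to 6.12). None of these markers passed, and their part in the mitosis values was not tested.

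**Figure D5:**
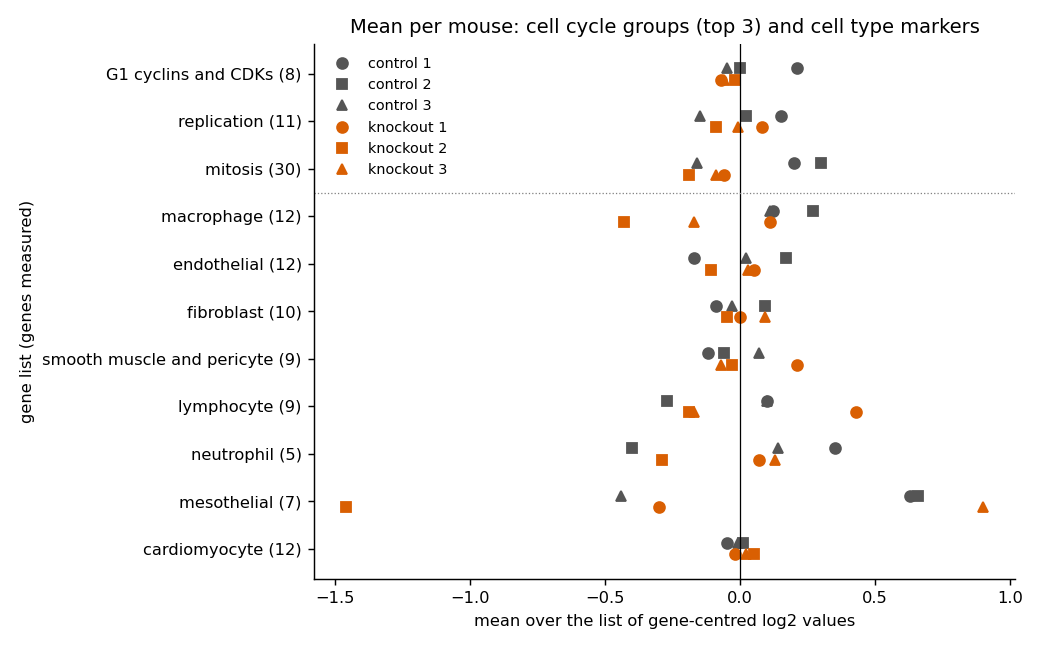
Mean per mouse of gene-centred log2 values for the 3 groups of members (top) and for 8 lists of cell type markers, with controls in grey, knockouts in orange and a symbol for each mouse number. For mitosis, controls 1 and 2 lie at 0.20 and 0.30 and the other 4 mice between -0.19 and -0.06. For macrophage markers control 2 at 0.27 is highest and knockout 2 at -0.43 lowest.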

How the data were processed

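One Affymetrix array per mouse was measured, 3 knockout and 3 control mice. The authors deposited log2 values made with RMA, per the submitters' processing notes; RMA by its design corrects background, normalizes between arrays and summarises probes, and no version of it was given. The values ran from 1.36 to 14.28, from which the log base was inferred. RNA was labelled with the NuGen Ovation Biotin system, per the labels' protocols. Array medians were 5.15 to 5.26. The number of mice limits precision, with a median SE of 0.147 for a log2 difference between groups.

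Of 45101 probe sets, 64 controls were left out and 45037 tested with limma 3.58.1 in R 4.3.3 (lmFit, eBayes), group as the only term, two-sided, with Benjamini-Hochberg adjustment over all of them. Gene names came from the platform annotation through Entrez identifiers (RefSeq table, GRCm38.p6): 34945 probe sets had 1 gene, 932 several and 9160 none listed here. The fit was tested on simulated data. Group means of members carry no test. Gene values in every mouse were given for the 4 members of smallest p and the 2 brightest per group, and the 2 genes of smallest p were named from each other list; Paxip1 was given whatever its values. All other genes and the further probe sets named lie outside this rule and were chosen after their values were seen. Members and lists were chosen with earlier results of these data known. Same-numbered mice did not deviate together (correlations of -0.151, -0.0817 and -0.0108), so numbers were not treated as pairs. The mice are labelled as separate animals. Alternatives were other priors, array weights, dim-probe filters, renormalization, a replicate block, leaving out mice, a threshold of 0.1 and averaged probe sets.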

Additional observations from a re-analysis of the deposited data

How the results depend on the processing

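No member passed under 14 of 17 alternatives, and 1, Cenpa, passed with a variance trend, with array weights and at a threshold of 0.1. The count of probe sets passing was 86, and became 196 at a threshold of 0.1, 185 with a variance trend, 51 with a robust prior, 204 with array weights, 0 with a replicate block, 0 with only knockout 3 and all controls, and 0 to 21 without single mice. Members lower at an unadjusted p under 0.05 (9) became 2 with only knockout 3 and 5 to 15 without single mice. Members higher at that p (1) became 2 with a variance trend, 5 with array weights, 0 with a replicate block, 2 with averaged probe sets and 0 to 4 without single mice. Paxip1 kept its sign under every alternative. Its probe set 1434363_x_at passed with array weights at -1.07. The probe sets 1423302_a_at, 1423303_at and 1454943_a_at did not pass with the replicate block (-1.58, -1.83 and -1.54), with only knockout 3 (-1.58, -1.97 and -1.62) or without single mice (-1.74 to -1.42, -1.97 to -1.71 and -1.70 to -1.43). No member passed with the replicate block, but none had passed without it, so no call of a member could be lost. Of 820 member values under alternatives, 58 turned sign, in 23 of 49 members, and 26 members kept theirs throughout. With array weights the values that turned were 0.01 for Bub1b, 0.03 for Ccne1, -0.04 for Cenpe, 0.10 for Kif11, 0.03 for Mad2l1, 0.13 for Mcm2, 0.05 for Mcm3 and 0.05 for Mcm4. With centred arrays they were 0.02 for Ccne1, 0.04 for Mad2l1, 0.03 for Mcm3 and 0.03 for Mcm4. With renewed quantile normalization they were 0 for Ccne1 and 0.01 for Mad2l1. With averaged probe sets they were 0.07 for Ccne1, -0.06 for Cdc25c, 0.01 for E2f1, 0 for Mcm2 and -0.04 for Tyms. With only knockout 3 they were 0.19 for Bub1b, 0.09 for Cdc20, -0.08 for Cdk4, -0.32 for Cenpe and 0.22 for Kif11. Without single mice, signs turned within -0.43 to 0.02 for Bub1b, -0.42 to 0.24 for Ccnb2, -0.18 to 0.13 for Ccne1, -0.22 to 0.16 for Cdc20, -0.05 to 0.14 for Cdc25c, -0.37 to 0.17 for Cdca8, -0.49 to 0.01 for Cdk1, -0.02 to 0.42 for Cenpe, -0.24 to 0.06 for Kif11, -0.61 to 0.08 for Kif23, -0.12 to 0.07 for Mad2l1, -0.28 to 0.27 for Mcm2, -0.09 to 0.14 for Mcm3, -0.11 to 0.11 for Mcm4, -0.21 to 0.03 for Mcm5, -0.01 to 0.34 for Mcm7, -0.24 to 0.24 for Mki67, -0.32 to 0.03 for Nusap1, -0.11 to 0.20 for Plk1 and -0.24 to 0.10 for Ttk. The cause of these changes was not tested, beyond the smaller number of mice or probe sets in some fits. Of the members, Tyms alone was not above the 95th percentile of the receptor probe sets.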
